A study of Mus musculus with 2 samples.

Results

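Oxidative phosphorylation is carried out in the inner mitochondrial membrane by 5 protein complexes. Complexes I to IV pass electrons from NADH and succinate to oxygen and, apart from complex II, pump protons, and complex V, the ATP synthase, uses the proton gradient to make ATP. Most subunits are encoded in the nucleus, made in the cytosol and imported, and the rest are encoded in mitochondrial DNA. The genes described here are 93 nuclear genes of these complexes, out of 20665 protein-coding genes on chromosomes 1 to 19. They were chosen by symbol alone (Nduf for complex I, Sdh for II, Uqcr for III, Cox4 to Cox8 for IV and Atp5 for V). No measured value entered the rule, but earlier results of these data were known when it was set. The symbols also take in 8 assembly factors of complex I (Ndufaf1 to Ndufaf8), which are not part of the finished complex, and isoforms of complex IV that are typical of muscle, lung or testis.

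The tissue was whole uterus of wild-type mice at gestational day 4. Its polyA RNA gave 2 libraries, 1 after immunoprecipitation of RNA with N4-acetylcytidine (ac4C, a cytidine that carries an acetyl group) and 1 input control. Age, strain and the number of animals pooled were not given in the sources used here. With 1 library in each group there is no replicate check of any value, and no p-value was calculated. In bulk tissue, fewer cells of a type and less RNA per cell cannot be told apart. The authors' list of 21192 peaks gives for each peak a fold enrichment, the signal at the summit over the peak caller's background. Of 20 marker genes of uterine epithelium, stroma, smooth muscle, vessels and leukocytes, 18 held a peak, and Epcam and Ptprc did not. Of all protein-coding genes on chromosomes 1 to 19, 31.7% did. At the highest peaks of the 18 markers the median background was 7.45 fragments, against 2.10 over all those genes with a peak. A link between background and the marker count was not tested.

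The fold enrichments below are the authors' values. The number of immunoprecipitated fragments at each summit, and the background in fragments, were worked back from its fold enrichment and p-value. The interval after each fold enrichment is a 95% interval, from the exact Poisson limits of that fragment number. It covers the counting error of that number only, with the background held fixed. A gene was counted as holding a peak where its span, introns included, held a summit. Positions are on mm10 (GRCm38), counted from 1.

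Of the 93 genes, 26 held a peak (28.0%), with 43 summits in all. Of all 20665 protein-coding genes, 31.7% held a peak. The share of the 93 genes therefore lay near that of protein-coding genes at large. Gene length bears on this comparison, since the share of all genes with a peak was 16.8% below 5 kb, 28.9% at 5 to 10 kb, 32.0% at 10 to 20 kb, 34.1% at 20 to 50 kb and 45.2% at 50 kb or more. The oxidative phosphorylation genes are short, with a median span of 7394 bp against 17491 bp. In the same classes 6 of 29, 10 of 35, 7 of 15, 3 of 11 and 0 of 3 of them held a peak. When the shares of all genes were weighted to these classes they gave 26.8%. With only peaks of a −log10 q of at least 10, 16 of the 93 genes held a peak (17.2%), against 18.3% of all protein-coding genes.

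Complex V had the highest share of genes with a peak, 7 of 17 (41.2%), beside 31.7% of all autosomal protein-coding genes. Complex IV followed with 5 of 17 (29.4%), complexes II and III stood at 1 of 4 and 2 of 8 (25% each), and complex I at 11 of 47 (23.4%). These shares describe 1 immunoprecipitation, and their differences were not tested. With only peaks at or above the median fold enrichment of the list, complex V stood at 23.5%, below the 25% of complex II. With the assembly factors left out, complex I stood at 10 of 39 (25.6%). The higher share of complex V came from the catalytic head and the ring. Of the 5 genes of the head and its central stalk 3 held a peak, and of the 3 genes of the ring all 3 did. Of 4 genes of the peripheral stalk 1 held a peak, and of 5 genes of other membrane subunits none did.

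**Figure D1:**
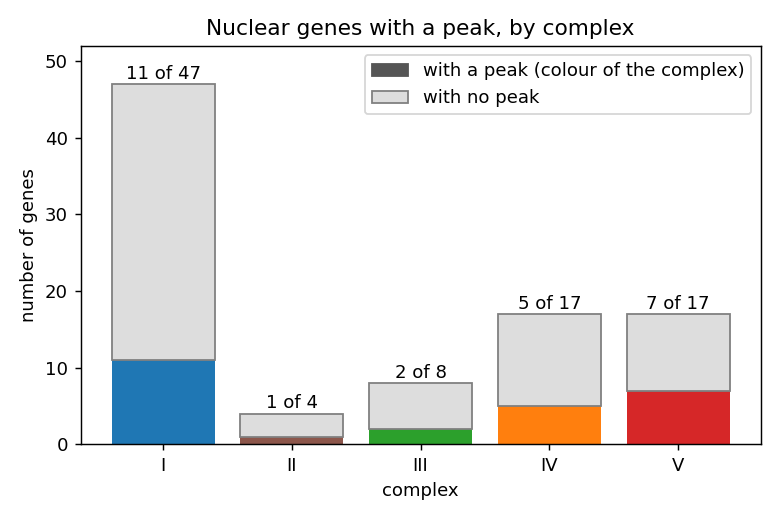
Number of nuclear genes of each complex (vertical axis) with a peak (coloured part of the bar) and with no peak (grey part). Complex V holds 7 genes with a peak among 17, and complex I 11 among 47.

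The median fold enrichment at the highest peak of a gene was 5.78 over the 26 genes (interquartile range 4.72 to 6.66), against 6.62 (5.08 to 9.06) over the 6560 autosomal protein-coding genes with a peak. Of the 26 genes, 7 lay above that median. By complex the median was 7.16 in V, 6.48 in the 1 gene of II, 5.77 in I, 5.36 in IV and 4.10 in the 2 genes of III. This order did not hold when each gene was given the median over its peaks, with 5.08 in V, 5.06 in II, 5.67 in I, 5.22 in IV and 3.61 in III. The ranges overlapped, from 3.19 to 15.2 in V and 3.93 to 8.75 in IV, with complex I reaching 8.78. In the order of all 26 genes, the interval of each gene overlapped that of the next. The interval of the highest, Atp5g3, lay above those of 19 of the other genes.

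The ring of subunit c turns as protons pass. Its genes Atp5g1, Atp5g2 and Atp5g3 encode the same mature subunit behind different import sequences. Atp5g3 (NCBI gene 228033) had the highest fold enrichment of the 26 genes, 15.2 (10.9 to 20.7), at a peak on chromosome 2 from 73910855 to 73911256, on 39 fragments over a background of 1.63. That value was above those of 95.1% of all autosomal genes with a peak. Its other peaks stood at 5.08 (3.54 to 7.08) and 4.68 (3.57 to 6.05), and their intervals lay below that of the first. Atp5g2 (NCBI gene 67942) held a peak of 8.10 (5.82 to 11.0) on chromosome 15 from 102665166 to 102665416, on 39 fragments, and another of 6.40 (4.82 to 8.33). The single peak of Atp5g1 stood at 4.82 (3.23 to 6.93). The intervals of the highest peaks of Atp5g3 and Atp5g1 thus did not overlap, while that of Atp5g2 overlapped both. These intervals leave out the error of the background, and the highest peak of each gene was picked by its value. Sharing of reads between the ring genes was not examined.

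Among genes of the head and its stalk, Atp5d (NCBI gene 66043), which encodes subunit delta of the rotating stalk, held 3 peaks. They stood at 12.0 (8.32 to 16.8), 8.37 (5.84 to 11.6) and 4.79 (3.60 to 6.25) from the start of the gene towards its end. The first lies on chromosome 10 from 80142349 to 80142817, on 32 fragments. Atp5b, the catalytic beta subunit, held 4 peaks spread along its span of 7082 bp, the most of any of the 93 genes, at 3.63, 3.06, 5.02 and 2.87 on 44 to 81 fragments. The third of these, 5.02 (4.00 to 6.23), lay above the interval of the last, 2.87 (2.25 to 3.61). Atp5a1, the alpha subunit, held 1 peak of 3.19 (2.39 to 4.17). Atp5c1 and Atp5e, for the gamma and epsilon subunits, held none. The beta and alpha genes had high backgrounds at their highest peaks, 15.3 fragments in both, against a median of 2.10 over all genes with a peak.

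The peripheral stalk holds the head still while the ring turns. Its one gene with a peak was Atp5j (NCBI gene 11957), which encodes coupling factor 6, with 7.16 (4.34 to 11.2) on chromosome 16 from 84834674 to 84835180, on 17 fragments. That summit also lay in the span of Gabpa, the gene of an ETS factor that regulates mitochondrial genes, and the list gives no strand, so the source could not be told. Atp5pb, Atp5h and Atp5o of the stalk held no peak, and neither did the membrane subunits Atp5j2, Atp5k, Atp5l, Atp5md and Atp5mpl.

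**Figure D2:**
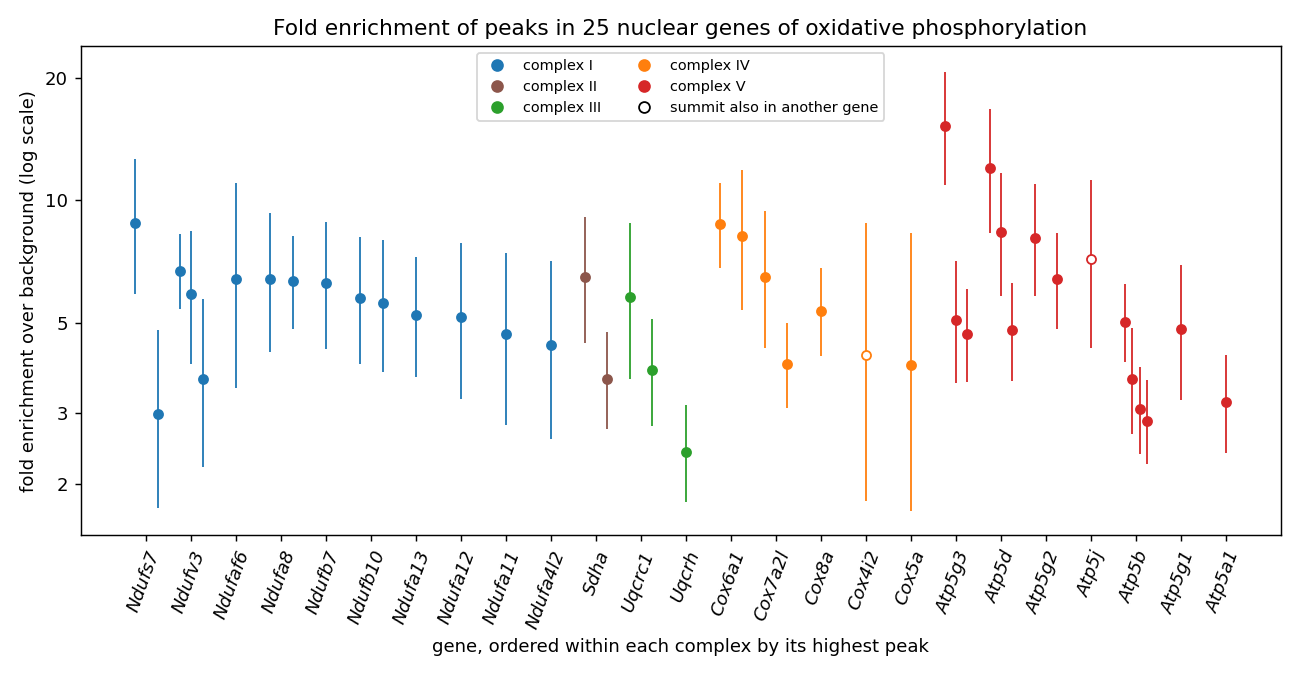
Fold enrichment over background (vertical log axis) of 42 peaks in 25 of the genes, with bars for the 95% Poisson interval of the fragment number. Colours mark the complexes, and open points are the 2 summits that also lie in another gene. Atp5g3 at 15.2 and Atp5d at 12.0 stand highest, and Uqcrh at 2.41 lowest.

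Complex I takes electrons from NADH to ubiquinone, along a flavin and a row of iron-sulfur clusters held by its core subunits. Of the 7 nuclear core genes 2 held a peak. Ndufs7 (NCBI gene 75406), whose protein holds the last cluster before ubiquinone, had the highest peak of the complex, 8.78 (5.89 to 12.6) on chromosome 10 from 80256460 to 80256691, on 27 fragments. Its second peak stood at 2.98 (1.75 to 4.79), below the interval of the first.

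Of 32 genes of accessory subunits and their paralogs, 8 held a peak. Ndufv3 (NCBI gene 78330), an accessory subunit beside the flavin, held 3, at 3.64 (2.21 to 5.71), 5.87 (3.97 to 8.40) and 6.71 (5.40 to 8.25) along the gene. The last, on chromosome 17 from 31530936 to 31531288, rested on 88 fragments, the most of any of the 43 peaks. The highest peaks of Ndufa8, Ndufb7 and Ndufb10 stood at 6.40 (4.23 to 9.33), 6.28 (4.30 to 8.87) and 5.77 (3.95 to 8.15). Ndufa8 and Ndufb10 had a second peak of 6.33 and 5.58. Ndufa13 (also known as Grim19) stood at 5.23 (3.67 to 7.25), Ndufa12 at 5.17 (3.25 to 7.85) and Ndufa11 at 4.69 (2.80 to 7.44). Ndufa4l2, a paralog of Ndufa4, stood at 4.41 (2.59 to 7.10). All of these intervals overlapped.

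Accessory genes with no peak were Ndufa2, Ndufa3, Ndufa4, Ndufa5, Ndufa6, Ndufa7, Ndufa9, Ndufa10, Ndufab1, Ndufb1, Ndufb2, Ndufb3, Ndufb4, Ndufb4b, Ndufb4c, Ndufb5, Ndufb6, Ndufb8, Ndufb9, Ndufc1, Ndufc2, Ndufs4, Ndufs5 and Ndufs6. Ndufa4 is counted here by its symbol, although its protein is now placed in complex IV. Of the 8 assembly factors, only Ndufaf6 (NCBI gene 76947) held a peak, of 6.40 (3.46 to 11.0) on 11 fragments, on chromosome 4 from 11065381 to 11065777. Ndufaf1, Ndufaf2, Ndufaf3, Ndufaf4, Ndufaf5, Ndufaf7 and Ndufaf8 held none.

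Complex II, which is also the succinate dehydrogenase of the citric acid cycle, held peaks only in Sdha (NCBI gene 66945), the flavoprotein that oxidises succinate. They stood at 6.48 (4.47 to 9.11) on chromosome 13 from 74339121 to 74339345, on 31 fragments, and at 3.64 (2.73 to 4.75). Sdhb, the iron-sulfur subunit, and the membrane anchors Sdhc and Sdhd held none. In complex III, which passes electrons from ubiquinol to cytochrome c, Uqcrc1 and Uqcrh held peaks. Those of Uqcrc1 (NCBI gene 22273), a core protein, stood at 5.79 (3.64 to 8.79), on chromosome 9 from 108948755 to 108948965 on 20 fragments, and at 3.82 (2.79 to 5.12). The peak of Uqcrh, the hinge protein, was the lowest of the 43 at 2.41 (1.81 to 3.14), on 52 fragments over a background of 21.0. Uqcr10, Uqcr11, Uqcrb, Uqcrc2, Uqcrfs1 and Uqcrq held none.

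Complex IV, cytochrome c oxidase, has subunits with isoforms for particular tissues. Of 7 isoforms typical of muscle, lung or testis, only Cox4i2 held a peak, and of the 10 other genes 4 did. Cox6a1 (NCBI gene 12861), the widely expressed form of subunit 6a, held 2 peaks of 8.75 (6.83 to 11.0), on chromosome 5 from 115345756 to 115346085 on 69 fragments, and 8.15 (5.39 to 11.9). The muscle form Cox6a2 held none. Cox8a, the widely expressed form of subunit 8, stood at 5.36 (4.14 to 6.83), while Cox8b and Cox8c held none. Cox7a2l (NCBI gene 20463), which joins complexes III and IV into larger assemblies, held peaks of 6.49 (4.32 to 9.40), on chromosome 17 from 83504163 to 83504365 on 26 fragments, and of 3.95 (3.08 to 5.01). Its relatives Cox7a1 and Cox7a2 held none.

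The pair of subunit 4 went the other way, with no peak in the widely expressed Cox4i1 and 1 in the lung form Cox4i2. That peak was weak, at 4.17 (1.82 to 8.81) on 5 fragments, and its summit also lay in Bcl2l1, a cell survival gene. Cox5a stood at 3.93 (1.72 to 8.31), also on 5 fragments. Both intervals were wide. Cox5b, Cox6b1, Cox6b2, Cox6c, Cox7b2 and Cox7c held no peak. For these and all 67 genes without a peak the background is not in the list, so at this depth no enrichment was detectable there, which does not show that ac4C is absent. No peak touched the span of any of the 67.

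The fold enrichments of the 43 peaks moved with background. Spearman's rho across these peaks was -0.52 (Pearson's r of the log2 values -0.46), and across all 19545 peaks of autosomal protein-coding genes it was -0.45 (-0.44). Peaks are not independent replicates, they share both libraries, and the background is the denominator of the fold enrichment. Only called peaks enter, and the lowest fold enrichment among all of them fell with background. It was 3.17 below 2 fragments, 2.25 between 2 and 8, and 1.61 from 8 fragments. Peaks whose background reached 8 fragments made up 32.6% of the 43 but 13.6% of all. Among these the median fold enrichment was 3.89 for the 14 peaks of oxidative phosphorylation genes and 3.75 for all. Between 2 and 8 fragments it was 5.79 for 23 peaks and 5.36 for all, and below 2 fragments 6.78 for 6 peaks and 6.40 for all. Within these classes of background, which are wide, the medians lay close together, with those of the oxidative phosphorylation genes the higher by a little. Over all peaks together the median was the lower one, 5.23 against 5.56. Neither the cause of the larger share of high backgrounds nor a link between it and that lower median was tested.

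**Figure D3:**
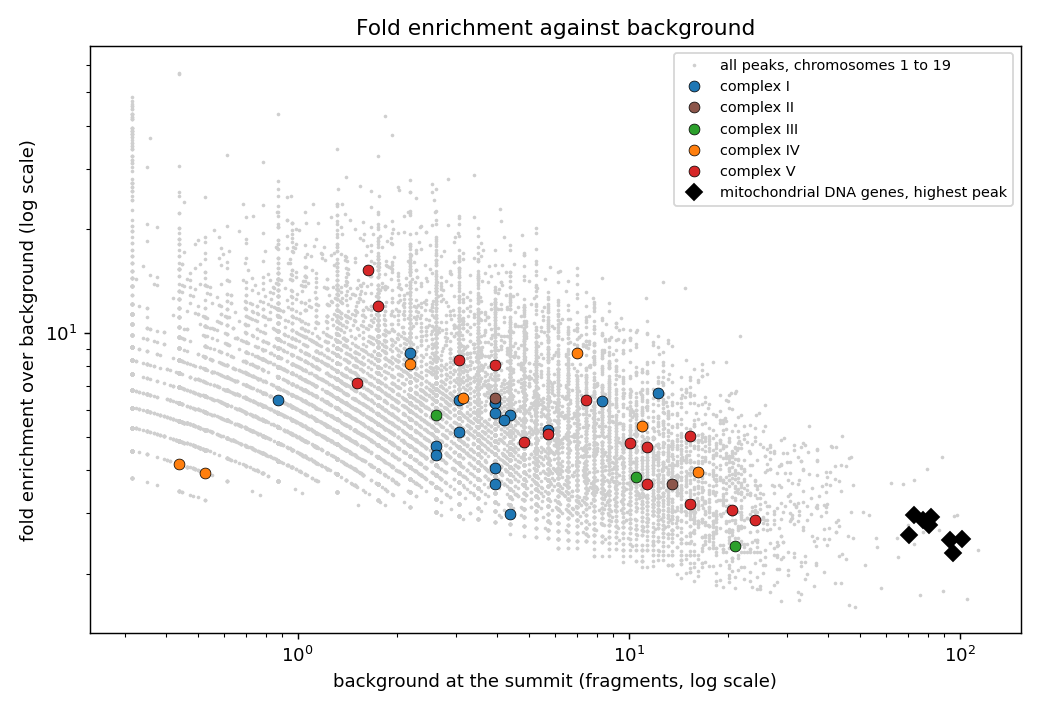
Fold enrichment over background (vertical log axis) against the background in fragments at the summit (horizontal log axis) for all peaks of chromosomes 1 to 19 (grey), the 43 peaks of nuclear oxidative phosphorylation genes (coloured by complex) and the highest peak of 8 genes of mitochondrial DNA (diamonds). Backgrounds of the 43 peaks run from 0.438 to 24.1 fragments, and those of the mitochondrial genes from 70.5 to 102.

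The strand of a gene was known, from RefSeq start sites of the same assembly, for 21 of the 26 genes with a peak. Exon positions were not used here, so places are given along the gene span. The median summit lay at 0.74 of the way from gene start to gene end, against 0.70 in all autosomal protein-coding genes. In genes below 20 kb the medians were 0.76 and 0.62. Of the 38 summits in the 21 genes, 12 (31.6%) lay within 500 bp of the gene end, each in a different gene. Within 500 bp of the start of the span lay 2 (5.26%). Of the summits of all autosomal genes shorter than 20 kb, 11.6% lay as near to the end. The share in oxidative phosphorylation genes of that length was 34.3%. The gap depended on length. Below 5 kb the shares were close, 3 of 10 summits (30%) against 26.1% in all genes, at 5 to 10 kb they were 6 of 15 (40%) against 11.0%, and at 10 to 20 kb 3 of 10 (30%) against 6.75%. Other short, widely expressed genes had shares of the same size, with 32.3% of 62 summits in cytosolic ribosomal protein genes and 40.9% of 22 in mitochondrial ribosomal protein genes. The limit of 500 bp was chosen after the values were seen.

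The 12 summits near the end lay 191 to 421 bp from it, with a median of 218 bp and 10 of them within 300 bp. Over all autosomal genes the 857 such summits had a median of 310 bp, and 408 of them lay within 300 bp. These were the peaks at 191 bp in Ndufs7, 199 bp in Ndufv3, 205 bp in Uqcrh, 213 bp in Atp5d, 215 bp in Cox8a, 216 bp in Uqcrc1, 220 bp in Ndufa13, 257 bp in Atp5g2, 267 bp in Cox6a1 and 298 bp in Ndufa8. The others lay at 369 bp in Atp5b and 421 bp in Atp5g1. The 2 summits near the start of the span were those of Ndufb10, at 174 bp, and Cox6a1, at 272 bp. Cox6a1 was therefore the one gene with a summit near both ends of its span of 3307 bp.

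In some genes a RefSeq start site lies inside the span, and 4 more summits lay within 500 bp of such a site. The highest peak of all, 15.2 in Atp5g3, lay 235 bp after the only start site of that gene in the table, which is 1138 bp inside the span. The peak of 12.0 in Atp5d lay 166 bp after the second of its sites, 3617 bp inside. The summit of Cox5a lay 433 bp after its only site, 3904 bp inside, and that of Atp5j at -50 bp, just before its second site, 881 bp inside. In all, 6 of 38 summits (15.8%) lay within 500 bp of a start site, against 8.17% of those of all autosomal protein-coding genes. In genes below 20 kb the shares were 17.1% and 11.1%.

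In 8 genes a peak near the end stood beside peaks elsewhere in the same gene. In 7 of the 8 the background at the end peak was higher than at every other peak of the gene, and in 7 it held more fragments than the highest of the others. The fold enrichment of the end peak was lower than that of the highest other peak in 5. Of these 5, the intervals of the compared peaks lay apart only in Atp5b and Atp5d, where the other peak was the highest of several. In Ndufa8 the values were 6.33 and 6.40. In Atp5d the background was 10.1 fragments at the end against 1.75 at the highest other peak, with fold enrichments of 4.79 and 12.0. In Cox6a1 it was 7.0 against 2.19, with fold enrichments of 8.75 and 8.15. Ndufs7 was the exception in background, with 2.19 fragments at the end and 4.38 at its other peak. Across the 12 genes with at least 2 peaks, the intervals of the highest and lowest peak lay apart in 4, namely Atp5b, Atp5d, Atp5g3 and Ndufs7.

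**Figure D4:**
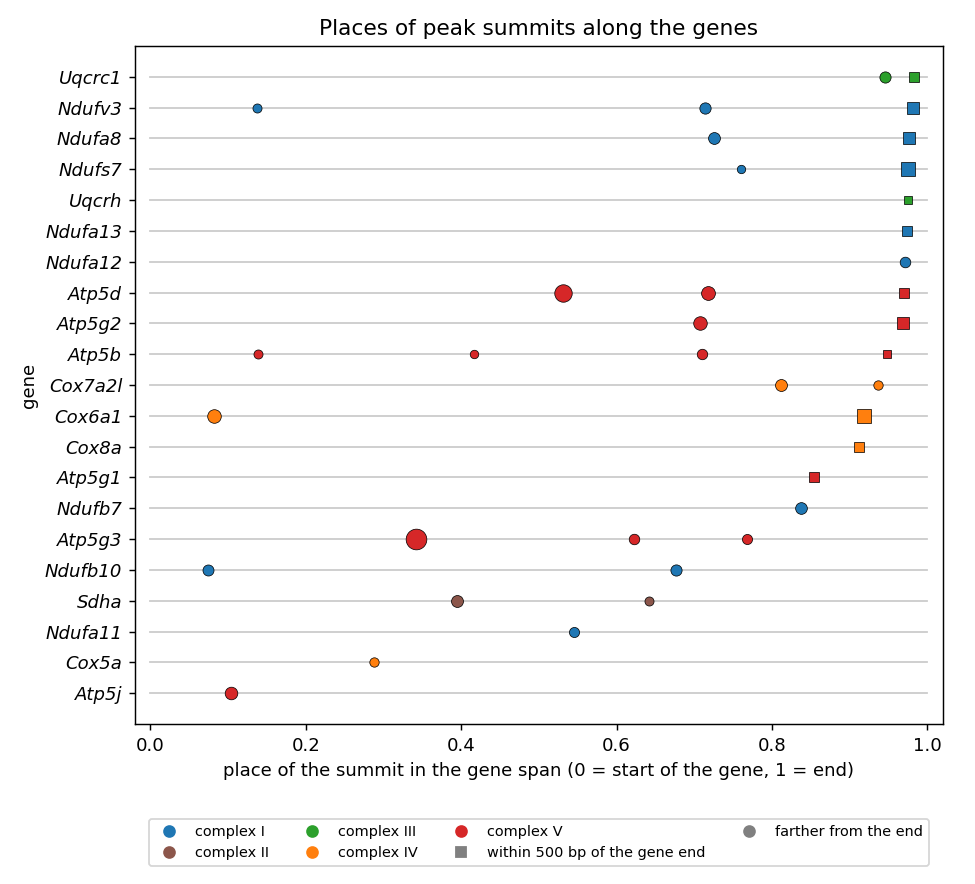
Place of each of 38 summits along the span of its gene, from start (0) to end (1), in the 21 genes whose strand was known. Larger symbols have higher fold enrichment, colours mark the complexes, and squares are the 12 summits within 500 bp of the gene end.

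Nuclear genes of oxidative phosphorylation are known to share promoter elements bound by nuclear respiratory factor 1 (NRF1), by ETS factors such as GABPA, and by YY1. RefSeq start sites were at hand for 75 of the 93 genes, with sequence from 250 bases before to 50 after each start. The 8-letter core GCATGCGC of the NRF1 site was found, on either strand, in 12 of 75 (16.0%), against 3.99% of 16457 autosomal protein-coding genes. The ETS letters CCGGAAG were found in 19 of 75 (25.3%) against 13.3%, and the YY1 letters AAGATGGCG in 8 of 75 (10.7%) against 2.14%. Both strands were read. The searched letters can overlap at their ends, since the ETS letters end in the AAG with which the YY1 letters begin. In the 75 genes 5 held both the NRF1 and ETS letters and 2 both the ETS and YY1 letters, and in 0 did these matches share a base. Among genes with an ac4C peak 5 of 21 held the NRF1 core (23.8%), and among those without 7 of 54 (13.0%). For ETS the counts were 5 of 21 and 14 of 54, and for YY1 2 of 21 and 6 of 54. These are descriptions of sequence and show no binding.

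The 4 stretches below are those where a gene with an ac4C peak held the NRF1 core before its start. They are shown as examples of a sequence that 12 of the 75 genes held. Each has 60 bases, 5′ to 3′ on the strand of the gene, from RefSeq on GRCm38.p6, and capitals mark the core. In the first 3 the core is read on both strands, in overlapping copies. In the fifth gene, Uqcrc1, the core lay after the start and is not shown.
Atp5g2 (chr15:102671056-102671115, minus strand, bases -68 to -9 from the start): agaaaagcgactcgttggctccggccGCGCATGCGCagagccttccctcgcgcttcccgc
Cox6a1 (chr5:115349087-115349146, minus strand, bases -188 to -129): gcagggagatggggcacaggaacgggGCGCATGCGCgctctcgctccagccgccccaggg
Ndufa11 (chr17:56717676-56717735, plus strand, bases -86 to -27): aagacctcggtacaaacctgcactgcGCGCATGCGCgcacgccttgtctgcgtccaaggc
Ndufa8 (chr2:36049339-36049398, minus strand, bases -60 to -1): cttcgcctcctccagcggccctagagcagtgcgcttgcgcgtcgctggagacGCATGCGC

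As ac4C is a mark on cytidine, the share of C was taken over the first 50 transcribed bases. Its median was 30% in the 21 genes with a peak (interquartile range 20 to 36%) and 28.0% in the 54 without (24.5 to 32.0%), against 28.0% (22.0 to 34.0%) over all autosomal protein-coding genes. These ranges overlapped. Of the 38 peaks of genes with a known strand 3 overlapped these bases, in Atp5d (at its second start site), Atp5j and Ndufb10. The sequence under the peaks was not analysed here.

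Genes of the same complexes that the symbols or chromosomes left out were counted from fixed lists. The X-linked subunit genes Ndufa1, Ndufb11 and Cox7b held no peak. Cyc1, the cytochrome of complex III, held 1 of 4.93 (3.42 to 6.90), and the cytochrome c genes Cycs and Cyct none. Of 38 assembly factors outside the symbol rule 11 held a peak (28.9%), which is close to the share of all genes. The highest were Sdhaf2 of complex II at 8.47 (5.06 to 13.4), Cox10, a haem enzyme for complex IV, at 8.06 (4.46 to 13.6) and Ttc19 of complex III at 6.87 (5.30 to 8.76).

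The partner subunits encoded in mitochondrial DNA differed from the nuclear ones in level. Of 13 genes 8 held a peak (61.5%), against 31.7% of all autosomal protein-coding genes. They were 4 of 7 in complex I, the 1 of complex III, 2 of 3 in complex IV and 1 of 2 in complex V. At their highest peaks the fold enrichment ran from 2.29 in CYTB to 2.96 in COX2, on 184 to 259 fragments over backgrounds of 70.5 to 102. Of the 26 nuclear genes only Uqcrh stood below 2.96 at its highest peak. The difference went with background, which was at most 24.1 fragments in the nuclear genes, and was not tested. The 13 mitochondrial genes had a median span of 784 bp, and the highest peaks in them a median width of 1205 bp. Such peaks could extend over neighbouring genes, and a gene was counted only where it held the summit.

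Regulators of mitochondrial genes held a peak in 6 of 11 (54.5%), and the 11 genes had a median span of 28893 bp. Of all autosomal protein-coding genes 31.7% held a peak, and of those at 20 to 50 kb 34.1%. Yy1 stood at 25.0 (19.5 to 31.6) on 68 fragments, an interval that overlapped that of Atp5g3 and lay above those of the other oxidative phosphorylation genes. Pprc1, a coactivator of NRF1, stood at 8.32 (6.23 to 10.9), Ppargc1b at 5.93 (2.83 to 11.4), Tfb2m at 5.09 (2.88 to 8.44) and Esrra at 3.05 (1.73 to 5.06), and Gabpa shared the peak of Atp5j. Nrf1, Ppargc1a, Tfam, Tfb1m and Gabpb1 held none. Processed copies of members, which could share reads with them, were looked for by name. Of 15 such pseudogenes, from 10 of the 93 genes, 0 held a peak. Of those 10 genes only Ndufa12 and Uqcrh held a peak themselves, so the count bears on few peaks. The share of all pseudogenes with a peak was not counted, and sharing of reads was not tested.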

How the data were processed

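The members and gene lists were chosen with earlier results of these data known. Per the submitters' processing notes, HISAT2 2.2.1, MACS3 3.0.0a7 and build mm10 were used, with no role or settings given. The deposited list gave peaks of the immunoprecipitation library alone, with no strand. The authors deposited per peak a score, a fold enrichment (a ratio of signal over background), a −log10 p-value and −log10 q-value, and the summit. The score, the −log10 q times 10, was not used. The largest q was 0.0499. Whether the background came from the input was not given in the sources used here.

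Genes were taken from a RefSeq table of GRCm38.p6. For each peak the whole number of fragments was found for which fragments plus 1 over background plus 1 gave the fold enrichment and the Poisson tail gave the p-value (Python 3.11.15, scipy 1.17.1). A number fitted within a relative 2e-05 for 21192 of 21192 peaks (4 to 390 fragments, median 22). A next number also fitted in 23 peaks, of which 0 were among the 43. On 1000 simulated peaks the right number was returned in 100%, and after swapping p-values 0.5% found any fit. Library read totals were not analysed here.

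Genes with a peak are named with their highest value, except 1 that is not reported here, with position and fragments for the 10 highest and the highest of each complex, and most genes without a peak by name. Kinases whose symbols begin with Rps6k, and Rps19bp1, were left out of the cytosolic ribosomal list. Alternatives were filters on q, fold and width, assignment by overlap, summits in several genes left out, the median over a gene's peaks, and subunits alone.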

Additional observations from a re-analysis of the deposited data

How the results depend on the processing

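Oxidative phosphorylation genes with a peak numbered 26. A minimum of 10 on −log10 q left 16, and a minimum of the median on fold enrichment left 14, both by construction. Under these filters complex I stood at 12.8% and 12.8%, and with the fold filter complex IV stood at 11.8%. Complex V kept the highest share among the complexes with the q filter (29.4%), while with the fold filter complex II stood at 25% and complex V at 23.5%. The number was 23 to 26 under the other 4 alternatives. When each gene took the median of its own peaks, complex V stood at 5.08, below complexes I (5.67) and IV (5.22). The median fold enrichment ran from 5.19 to 6.60 over 7 alternatives and the median place from 0.72 to 0.76 over 3. With limits of 300 and 1000 bp, chosen after seeing the data, the share of summits near the gene end was 26.3% and 47.4%. Of 86 values under alternatives 81 stayed within 1.5 times the count, the 95% Wilson or order-statistic interval or, for fold enrichments, the median Poisson interval. These ranges are wide, such as 4.56 to 69.9% for the share of complex II, so that count is no measure of stability. The change of complex V from 7.16 to 5.08, which altered the order of the complexes, counted as staying within. With 5 fragments at the weakest summits, depth limits Cox4i2 and Cox5a most. No paired analysis was possible because each group has 1 library and the values come from no test.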

Other observations

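Other metabolic and mitochondrial genes were counted in the same way. Of all autosomal protein-coding genes 31.7% held a peak, and of those at 20 to 50 kb 34.1%. The 13 genes of the citric acid cycle, which feeds electrons to complexes I and II, had a median span of 24258 bp. Of the 13, 6 held a peak (46.2%). Of these, Mdh2, malate dehydrogenase, stood at 9.21 (95% Poisson interval 6.18 to 13.3). Ogdh stood at 6.40 (4.23 to 9.33), Cs at 4.85 (3.28 to 6.93), Dlst at 4.64 (3.14 to 6.63) and Idh3g at 2.75 (1.92 to 3.82).

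Of 78 genes of mitochondrial ribosomal proteins 22 held a peak (28.2%), with a median fold enrichment of 5.18 at the highest peak. Of 86 genes of cytosolic ribosomal proteins 49 did (57.0%), with a median of 4.31. The median background at the highest peak was 2.85 fragments in the first set, 16.2 in the second and 3.55 in the oxidative phosphorylation genes. These differences were not tested.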
